A study of Mus musculus with 28 samples.

Results

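Mature miRNAs known from cells of the vessel wall were followed in mouse blood, where their cells of origin were not measured. They are mmu-miR-126a-3p and mmu-miR-126a-5p, both arms of a hairpin of endothelial cells, and mmu-miR-143-3p, mmu-miR-145a-5p and mmu-miR-145a-3p, arms of neighbouring hairpins of vascular smooth muscle and other mural cells. These 5 were chosen by name from the 1966 miRNAs in the tables, which list 80668 RNAs in all. All samples came from female wildtype mice of the inbred strain C57BL/6N, whose age was 2 months for 3 mice, 6 months for 4, 8 months for 3, 12 months for 2 and 18 months for 2. Blood drawn from the vena cava of each of the 14 mice was cleared of platelets and debris, and ultracentrifugation then split it into a pellet enriched in extracellular vesicles (EVs) and the fluid left over, which is named plasma in what follows. With small RNA sequenced from both fractions of every mouse there were 28 libraries, without treatment and, per the labels' protocol, without pooling of animals. Plasma libraries of replicates 2 and 3 at 2 months nevertheless carry the same code in their labels, which joins the numbers of 2 mice, so whether each is a single mouse is uncertain and only the replicate number ties them to an EV library.

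An miRNA is cut from a hairpin precursor, and either strand, the 5p or the 3p arm, can be loaded into the silencing complex, where the bases of the seed at its 5′ end pair with target mRNAs. miR-126 is transcribed with the endothelial gene Egfl7 and is known for sustaining growth factor signalling and vessel integrity in endothelial cells. miR-143 and miR-145 are made from a shared primary transcript, are driven by serum response factor and its coactivator myocardin, and are known for keeping smooth muscle cells contractile.

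The Mir126a hairpin lies at chr2:26591357-26591429 on the plus strand of GRCm38 (GENCODE M21), 73 bases long and inside Egfl7 (chr2:26580014-26593120, plus strand). It falls in an intron of 7 protein-coding transcripts of Egfl7 and of 1 transcript marked for nonsense-mediated decay, and in an exon of 1 retained-intron transcript. Mir126b is annotated on the opposite strand at chr2:26591363-26591420. The mature sequence of 1 of the 5 miRNAs was matched in the RefSeq table (GRCm38.p6, chr2:26591402-26591423, plus strand, 22 bases). It is shown because its level and its ratio to the other arm recur below, with the seed (bases 2 to 8) in capitals.
mmu-miR-126a-3p: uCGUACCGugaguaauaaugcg

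Total counts were between 928651 and 23905651 per plasma library and between 4764338 and 52753818 per EV library. Of these, miRNAs took 4977 to 82646 per plasma library and 20063 to 203624 per EV library, so that precision for a miRNA is set by far fewer reads than the library holds. Levels are given in RPM, the authors' scaled counts, and, for comparisons between libraries, as CPM after TMM scaling over miRNAs (TMM CPM), which set a miRNA's count against the miRNA counts of its library. What the RPM of a library are relative to is not stated, while TMM CPM are relative to its miRNAs.

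Both arms of miR-126a were abundant outside cells. In plasma, miR-126a-5p averaged 187 ± 116 RPM (SD, n = 14 mice; lowest 67.9, median 163.7, highest 480) and in EVs 254 ± 214 RPM (lowest 70.2, median 130, highest 726), which placed it 8th of 1966 miRNAs by mean RPM in both fractions. miR-126a-3p averaged 51.8 ± 34.6 RPM in plasma (lowest 16.5, median 41.9, highest 147) and 75.6 ± 67.4 RPM in EVs (lowest 19.4, median 36.1, highest 216), 27th and 20th by mean RPM. The 5p arm thus exceeded the 3p arm in all 28 libraries, by a ratio that is described below.

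The mural miRNAs followed at lower levels. miR-143-3p averaged 33.3 ± 28.2 RPM in plasma (lowest 11.5, median 26.0, highest 120) and 41.7 ± 34.8 RPM in EVs (lowest 8.52, median 22.1, highest 123), 35th and 34th of all miRNAs. miR-145a-5p averaged 22.6 ± 15.8 RPM in plasma (lowest 11.1, median 17.0, highest 71.5) and 24.5 ± 21.2 RPM in EVs (lowest 5.86, median 10.2, highest 64.4), 48th and 51st. Its partner strand miR-145a-3p was near the limit of these libraries, with 2 to 23 counts per plasma library and 4 to 68 per EV library, and reached 1 RPM in 10 of 14 plasma and 6 of 14 EV libraries. The other 4 arms reached 1 RPM in every library. The order of mean levels, miR-126a-5p, miR-126a-3p, miR-143-3p, miR-145a-5p and miR-145a-3p, was the same in both fractions, but the ranges of mean ± SD overlapped between neighbours in this order, except between miR-145a-5p and miR-145a-3p in plasma, and levels of different miRNAs also depend on how well each is ligated and amplified. Together the 5 arms took 2.22% to 11.3% of the miRNA counts in plasma (median 4.60%) and 2.24% to 13.5% in EVs (median 4.05%). In blood fractions, fewer cells that release a miRNA and less release per cell cannot be told apart.

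**Figure D1:**
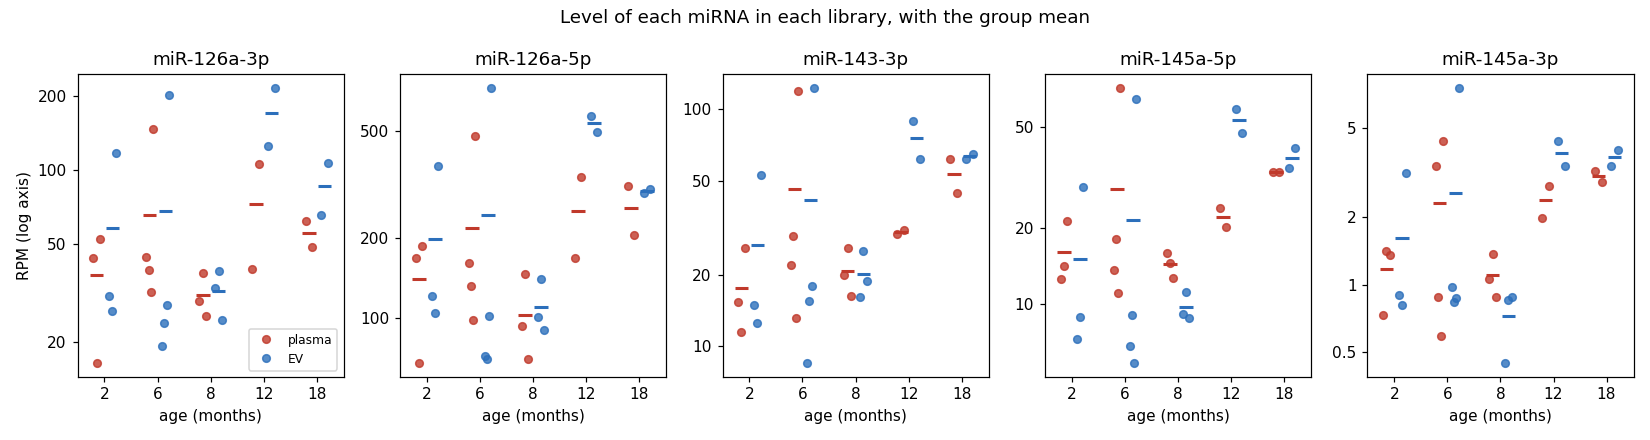
RPM (log axis) of each of the 5 miRNAs in plasma (red) and EV (blue) libraries by age in months, with 1 point per mouse and a bar at the group mean (n = 2 to 4 mice). For each miRNA 6 EV libraries sit apart from the other 8, among them replicate 4 at 6 months, which for miR-126a-5p reached 726 RPM. By RPM these sets do not overlap for 77 of 307 miRNAs (25.1%).

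Mir143 lies at chr18:61649196-61649258 and Mir145a at chr18:61647825-61647894, both on the minus strand of GRCm38 with 1301 bases between them, and the annotation places no other gene over either.

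None of the 5 vascular miRNAs was called between EVs and plasma when all libraries were fitted with age as a covariate (edgeR's quasi-likelihood test, p-values adjusted over 333 miRNAs), where 61 miRNAs (18.3%) were called, 27 higher in EVs and 34 lower (28 and 15 with RPM scaling, 40 and 30 with DESeq2). On the log2 scale, EVs over plasma stood at 0.14 for miR-126a-3p (SE 0.22, adjusted p = 0.727) and 0.09 for miR-126a-5p (SE 0.21, adjusted p = 0.836), beside a median of 0.02 over all miRNAs tested. It was -0.03 for miR-143-3p (SE 0.25, adjusted p = 0.962) and 0.02 for miR-145a-3p (SE 0.25, adjusted p = 0.989). DESeq2 also called 0 of the 5, and 0 of the 5 had an unadjusted p under 0.05 in edgeR. An SE of 0.21 or more leaves differences of this size between the fractions undetectable in this fit.

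miR-145a-5p stood on the plasma side. Its plasma level was 3675 ± 1788 TMM CPM (SD, n = 14; lowest 1460, median 3708, highest 8620) and its EV level 2919 ± 1552 TMM CPM (lowest 1098, median 2476, highest 6679). The ranges overlap, but within a mouse the EV value was the lower in 11 of 14 mice, and the other 3 were replicate 1 at 6 months and both 12-month mice. The log2 fold change of -0.35 (SE 0.24) was not called with all libraries treated as separate (adjusted p = 0.319, edgeR). With the mouse as a block, which uses that both fractions came from 1 animal, it was -0.36 (SE 0.11) and was called (adjusted p = 0.0103, edgeR), as 48 of 333 miRNAs (14.4%) were in this direction. The other 4 vascular miRNAs were not called with the block either. With RPM scaling the median over all miRNAs shifted by 0.26, in favour of EVs, and the value became 0.03 for miR-145a-5p in the fit without the block (adjusted p = 0.955, edgeR). Within mice, its RPM were lower in EVs in 9 of 14, with a log2 difference of -0.20 ± 0.78 (SD, n = 14; median -0.46).

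The ratio of miR-143-3p to miR-145a-5p compares arms of neighbouring hairpins inside 1 library and needs no scaling between libraries. It ranged from 0.814 to 1.87 in plasma (median 1.31) and from 1.24 to 3.04 in EVs (median 1.77). The EV ratio was the higher in 11 of 14 mice, by a mean log2 difference of 0.37 ± 0.46 (SD, n = 14; 1.29-fold). The exact sign-flip test over mice gave p = 0.00903 (two-sided), and 0.0813 after Benjamini-Hochberg adjustment over the 9 tests of ratios, which misses the threshold of 0.05. Leaving out replicate 1 at 6 months, whose plasma library holds 8 counts of miR-145a-5p, gave 0.42 with an adjusted p of 0.0264 by the exact test, and leaving out replicate 2 at 12 months gave 0.41 with 0.0417. The plasma library of replicate 1 at 6 months is the shallowest of its fraction, at 928651 total counts. The study's methods exclude samples under 2000000 aligned reads, without saying whether this rule held for the blood fractions. With any other mouse left out the adjusted p stayed over 0.05, up to 0.163 (exact test).

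**Figure D2:**
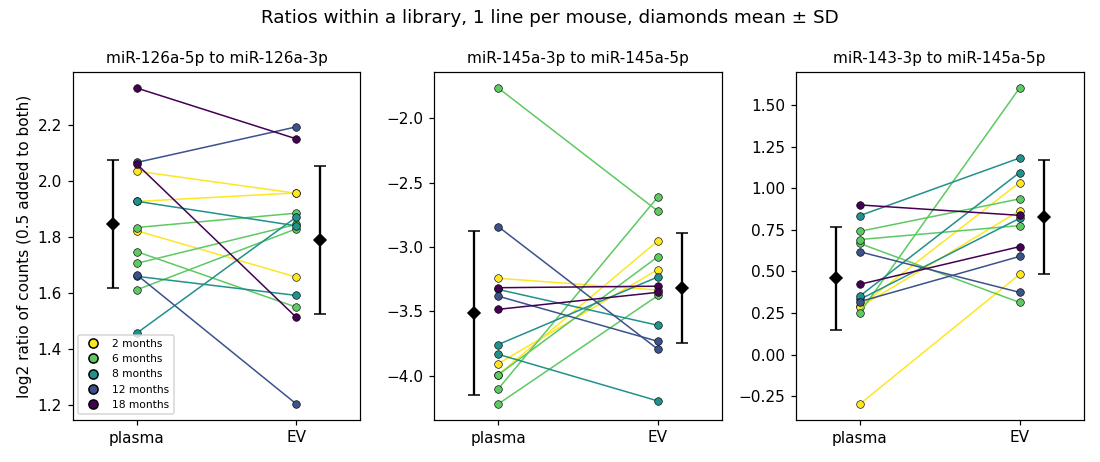
Log2 ratios of counts within a library (0.5 added to both counts) in plasma and EVs, with 1 line per mouse coloured by age and diamonds at the mean ± SD of 14 mice. The lines of miR-143-3p to miR-145a-5p rise from plasma to EVs in 11 of 14 mice, while those of the arms of miR-126a and of miR-145a cross.

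No difference between the fractions was detected in the proportions of the arms of a hairpin, and the few counts of miR-145a-3p leave that ratio imprecise. miR-126a-5p exceeded miR-126a-3p by a ratio of 2.74 to 5.04 in plasma (median 3.55) and of 2.30 to 4.58 in EVs (median 3.59). The log2 ratio in EVs minus that in plasma was -0.058 ± 0.26 (SD, n = 14; EV ratio higher in 6 of 14 mice; exact sign-flip p = 0.411, adjusted p = 0.529). Of the miR-145a counts, the 3p arm held a small part, with ratios to the 5p arm of 0.0537 to 0.294 in plasma and of 0.0545 to 0.164 in EVs. The highest of these, in the plasma of replicate 1 at 6 months, rests on 2 counts of miR-145a-3p and 8 of miR-145a-5p, a 3p share of 20% with a 95% Wilson interval from 5.67% to 51.0%. The difference between the fractions in this log2 ratio was 0.19 ± 0.75 (EV ratio higher in 8 of 14 mice; exact sign-flip p = 0.350, adjusted p = 0.529). Intervals cover counting error only, since reads without molecular identifiers are not independent molecules.

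Mice that had more of a vascular miRNA in plasma also had more of it in EVs. This relation was computed after the values had been seen. Over 14 mice, Spearman's rho of TMM CPM in plasma and EVs was 0.92 for miR-126a-5p (permutation p = 2e-05, adjusted p = 0.000794 over 278 miRNAs), 0.85 for miR-143-3p (permutation p = 0.0002, adjusted p = 0.00278), 0.85 for miR-145a-5p (permutation p = 0.0003, adjusted p = 0.00379), 0.79 for miR-126a-3p (permutation p = 0.00106, adjusted p = 0.00947) and 0.73 for miR-145a-3p (permutation p = 0.00437, adjusted p = 0.0283). All 5 were called, against 54 of 278 miRNAs (19.4%), and the median rho of the 278 was 0.33. Nothing was tested about the 5 as a list.

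On log2 TMM CPM, Pearson's r was 0.94 for miR-143-3p (permutation p = 2e-05), 0.89 for miR-126a-3p (permutation p = 1e-05, the smallest that the resamples can give), 0.88 for miR-126a-5p (permutation p = 3e-05), 0.85 for miR-145a-5p (permutation p = 0.00014) and 0.65 for miR-145a-3p (permutation p = 0.0113). Without the 2 mice farthest from the median of plasma, r remained at 0.90, 0.86, 0.84, 0.80 and 0.65 in the same order. Without the 2 mice of uncertain pairing, rho of miR-126a-3p fell to 0.68 and was no longer called (adjusted p = 0.097, permutation test). The call of miR-145a-3p was lost when any 1 of 6 mice was left out (lowest rho 0.66, without replicate 4 at 6 months, adjusted p = 0.0953, and the same rho without replicate 1 at 12 months; the others were replicate 1 at 2 months, replicate 2 at 12 months and both 18-month mice).

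**Figure D3:**
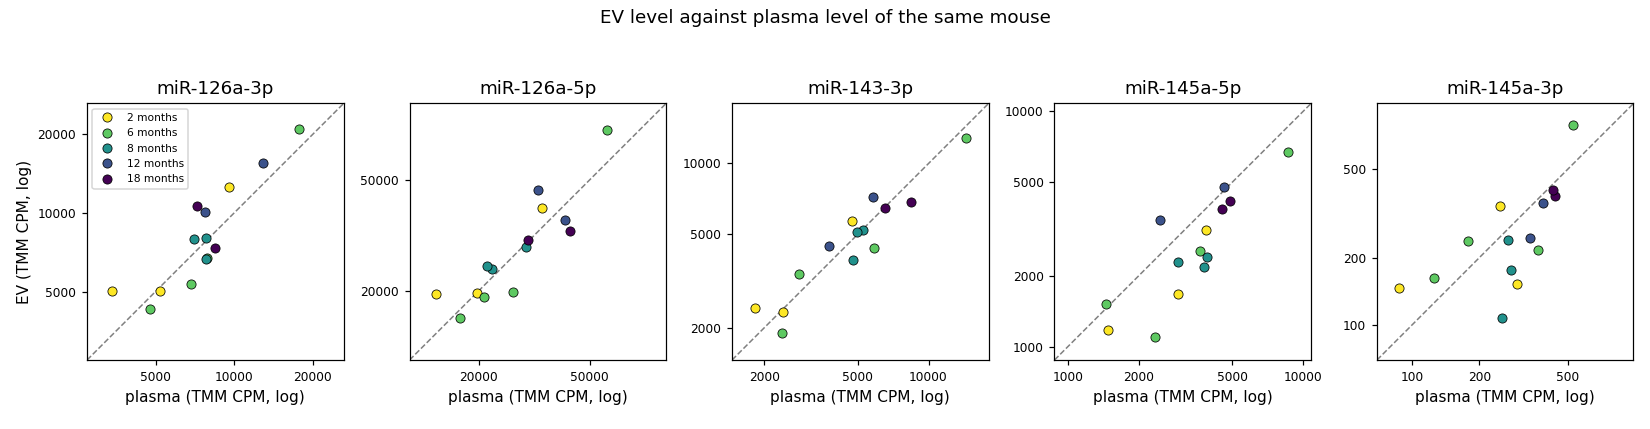
EV level against plasma level of the same mouse in TMM CPM (log axes, equal scale), with 1 point per mouse coloured by age and a dashed line at equal levels. The point at the top right of every panel is replicate 4 at 6 months, and for miR-145a-5p 11 of 14 points lie below the line.

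Replicate 4 at 6 months had the highest level of each vascular miRNA in plasma and, by TMM CPM, in EVs. The 5 arms made up 11.3% of its miRNA counts in plasma and 13.5% in EVs. For miR-126a-5p the 4 mice of this age had 17154, 26546, 20840 and 57829 TMM CPM in plasma and 15954, 19703, 18990 and 75314 in EVs, in the order of their replicate numbers. For miR-143-3p they had 2372, 5864, 2805 and 14411 in plasma and 1890, 4383, 3375 and 12780 in EVs. In these values the fourth mouse lay above every mouse of another age and the first 3 did not. In EVs replicate 1 lay below every mouse of another age for both miRNAs, and replicate 3 did for miR-126a-5p. The depth of replicate 4 was not at either end, with 7315161 total counts in plasma and 13099045 in EVs. Among lists of miRNAs known for other cells, the summed liver list was high in the same mouse, at 16976 TMM CPM in plasma against 4380 to 12950 in the other 3 mice of this age and 26162 in EVs against 7466 to 11874. The striated muscle list stood at 1031 against 376 to 730 in plasma and 868 against 341 to 651 in EVs, while the red cell list was lower than in those mice in both fractions (111771 against 146004 to 170720 in plasma, 119581 against 139599 to 152635 in EVs). The leukocyte list was lower as well (23930 against 35644 to 37410 in plasma, 25815 against 35825 to 44734 in EVs). The platelet list was at 17029 against 19759 to 22811 in plasma and at 17503, inside the range of those mice, in EVs. A list of other endothelial miRNAs was higher in both fractions (79247 against 64783 to 71587 in plasma, 120137 against 69006 to 83452 in EVs). A list of other mural and fibroblast miRNAs was at 63963 in plasma, inside the range of those mice (61586 to 66327). In EVs it was higher, at 76078 against 48349 to 56940. The part of these lists in the high levels was not tested.

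The ages ask whether circulating vascular miRNAs move over adult life. In plasma, miR-143-3p was at 1819, 2391 and 4716 TMM CPM in the 2-month mice and at 8409 and 6542 in the 18-month mice. At 8 months it was at 4774, 5271 and 4966, and at 12 months at 5780 and 3773. The 6-month mice lay anywhere from 2372 to 14411. In EVs the 2-month mice had 2432, 2340 and 5709 and the 18-month mice 6838 and 6487.

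In EVs, miR-145a-5p was at 1183, 1671 and 3133 TMM CPM at 2 months and at 1518, 2557, 1098 and 6679 at 6 months. It was at 2184, 2296 and 2395 at 8 months, at 4758 and 3434 at 12 months and at 3825 and 4136 at 18 months. The mice of 12 and 18 months thus lay between 3434 and 4758. The younger ones lay between 1098 and 6679, and their highest value is the fourth 6-month mouse. This ordering was not tested.

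The count test called none of the 5 with age in either fraction, with all 14 mice. In plasma the log2 change per month was positive for all 5, between 0.02 for miR-126a-3p (SE 0.03, adjusted p = 0.84) and 0.06 for miR-145a-3p (SE 0.03, adjusted p = 0.384, edgeR over 304 miRNAs), with 0.05 for miR-143-3p (SE 0.04, adjusted p = 0.493), 0.04 for miR-126a-5p (SE 0.03, adjusted p = 0.493) and 0.03 for miR-145a-5p (SE 0.03, adjusted p = 0.682). No miRNA at all was called in plasma (0%), where 47 had an unadjusted p under 0.05, none of them a vascular arm, and DESeq2 called 2, neither of them vascular. In EVs it was also positive for all 5, between 0.03 for miR-126a-5p (SE 0.03, adjusted p = 0.664) and 0.07 for miR-145a-5p (SE 0.03, unadjusted p = 0.0461, adjusted p = 0.404, edgeR over 307 miRNAs), with 0.06 for miR-143-3p (SE 0.03, adjusted p = 0.48). In EVs edgeR called 1 of the 307 miRNAs (0.326%), where 37 had an unadjusted p under 0.05, and DESeq2 called 5, none of them vascular. DESeq2 gave no adjusted p for miR-145a-3p in EVs. The median change of all miRNAs tested was -0.0019 per month in plasma and 0.0014 in EVs.

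A single mouse decided whether miR-145a-5p was called in EVs. Without replicate 4 at 6 months its change was 0.09 per month (SE 0.02, adjusted p = 0.0307, edgeR), and 10 miRNAs were then called in EVs, 8 of them rising. miR-143-3p in EVs was at 0.08 per month (SE 0.02, adjusted p = 0.0662) without this mouse, and no vascular miRNA was called in plasma (lowest adjusted p = 0.136, miR-143-3p, edgeR). The difference of the age trend between EVs and plasma was between -0.031 and 0.029 per month for the 5 (adjusted p = 0.997 for each, edgeR), where 0 of 333 miRNAs (0%) were called by edgeR or DESeq2 and 11 had an unadjusted p under 0.05 in edgeR.

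**Figure D4:**
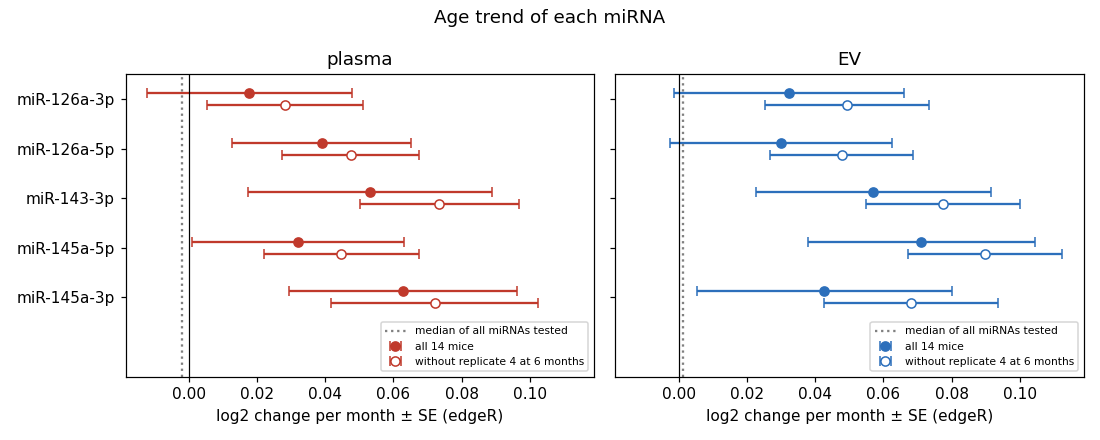
Change per month on the log2 scale ± SE from edgeR for each miRNA in plasma and EVs, with all 14 mice (filled) and without replicate 4 at 6 months (open), and a dotted line at the median of all miRNAs tested. Every point lies above 0, and in EVs miR-145a-5p moves from 0.07 to 0.09 per month without that mouse.

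The study's own measure of aging is the Spearman correlation of RPM with age, with a rho over 0.5 counted as positive. In plasma, 1 of the 5 passed it, miR-143-3p at 0.62 (permutation p = 0.0217, adjusted p = 0.693 over 304 miRNAs), where 9 of 304 miRNAs (2.96%) did. Its Pearson's r was 0.29 (permutation p = 0.319), and without the 18-month mice rho was 0.50 (permutation p = 0.101) and r was 0.09 (permutation p = 0.7). The other rho were 0.48 for miR-145a-5p (permutation p = 0.0852), 0.38 for miR-145a-3p (permutation p = 0.18), 0.35 for miR-126a-5p (permutation p = 0.218) and 0.23 for miR-126a-3p (permutation p = 0.424), and their Pearson's r lay between 0.16 and 0.45 (permutation p between 0.104 and 0.585). Without the 18-month mice rho of miR-126a-3p was -0.011, and r of these 4 lay between 0.06 and 0.24. None of the 5 passed the threshold of 0.05 after adjustment.

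In EVs the RPM of all 5 miRNAs fell into separate sets, so rho over all 14 EV libraries is not given for RPM. miR-126a-5p was at 70.2 to 139 RPM in 8 EV libraries and at 294 to 726 in the other 6, and miR-145a-5p at 5.86 to 11.1 and at 29.2 to 64.4 in the same libraries. The 6 libraries were those of both 12-month and both 18-month mice, replicate 3 at 2 months and replicate 4 at 6 months. Of 307 miRNAs, 77 (25.1%) had no overlap between these sets by RPM and 6 (1.95%) by TMM CPM. By TMM CPM the sets overlapped for miR-126a-3p (up to 8024 in the 8, from 7343 in the 6) and miR-143-3p (up to 5223, from 4450). They did not for miR-126a-5p, miR-145a-5p and miR-145a-3p. The summed RPM of all miRNAs was at 3357 to 6608 and at 8192 to 14702 in these libraries, and its part in the division was not tested. This division was drawn from the levels of miR-126a-5p after they were seen and carries no test. Both oldest ages lie wholly on its upper side, so a correlation of RPM with age in EVs cannot be told apart from it. Computed over all 14 EV libraries, this correlation was called for none of the 5 (adjusted p between 0.534 and 0.647, permutation test).

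By TMM CPM, rho with age over all 14 EV libraries was 0.55 for miR-145a-5p (permutation p = 0.0447, adjusted p = 0.511 over 307 miRNAs) and 0.53 for miR-143-3p (permutation p = 0.0533, adjusted p = 0.511), and 16 of 307 miRNAs (5.21%) passed 0.5. Their Pearson's r was 0.44 and 0.33 (permutation p = 0.112 and 0.255), and 0.37 and 0.24 without the 18-month mice (permutation p = 0.238 and 0.453). The other 3 were between 0.40 and 0.48. In plasma, miR-143-3p (0.58), miR-145a-3p (0.57) and miR-126a-5p (0.50) passed 0.5 by TMM CPM (permutation p = 0.0328, 0.0348 and 0.0697, adjusted p between 0.327 and 0.399), as did 32 of 304 miRNAs (10.5%). Their Pearson's r was 0.33, 0.57 and 0.39 (permutation p = 0.248, 0.0342 and 0.175), and without the 18-month mice 0.18, 0.39 and 0.32 (permutation p = 0.565, 0.216 and 0.313).

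The arm and hairpin ratios showed no age trend past the threshold. The largest was the ratio of miR-145a-3p to miR-145a-5p in EVs, which was lower in older mice at a rho of -0.54 (permutation p = 0.0481, adjusted p = 0.198 over 9 tests; Pearson's r -0.34, permutation p = 0.238; r without the 18-month mice -0.55, permutation p = 0.0644). The ratio of miR-143-3p to miR-145a-5p in plasma had a rho of 0.51 with age (permutation p = 0.0661, adjusted p = 0.198; Pearson's r 0.46, permutation p = 0.104; r without the 18-month mice 0.43, permutation p = 0.165).

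The vascular arms varied together across mice. For each arm with a median of at least 10 counts in each fraction, which leaves out miR-145a-3p, the other 162 such miRNAs were ordered by the lower of their rho over 14 plasma and over 14 EV libraries. These rho describe libraries that share depth and handling, and the median of the lower rho was between -0.24 and -0.17. Both arms of miR-126a were nearest to each other (rho 0.89 in plasma, 0.91 in EVs), and miR-143-3p and miR-145a-5p were nearest to each other (0.88 and 0.90). Next to miR-126a-3p came miR-125a-5p (0.82 and 0.91) and miR-10a-5p, a miRNA of endothelial cells among others (0.70 and 0.90), with miR-143-3p 4th and miR-145a-5p 10th. Next to miR-126a-5p came miR-125a-5p (0.75 and 0.89) and miR-143-3p (0.74 and 0.92), with miR-145a-5p 6th. After their neighbour, miR-143-3p was closest to miR-126a-5p and miR-139-5p (0.75 and 0.73), and miR-145a-5p to miR-10a-5p (0.76 and 0.83) and miR-200a-3p, an epithelial miRNA (0.71 and 0.85).

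Other miRNAs of vessel cells were called between the fractions in both directions, and their counts are to be read against the 18.3% of all miRNAs called. Of 14 miRNAs listed for endothelial cells, 12 were tested, and 2 were called higher in EVs, miR-23b-3p (log2 fold change 0.55, SE 0.13, adjusted p = 0.00371, edgeR) and miR-24-3p (0.38, SE 0.13, adjusted p = 0.0367, edgeR), which share a genomic cluster, while 1 was called lower, miR-92a-3p (-0.48, SE 0.14, adjusted p = 0.0181, edgeR). The median of the 12 was 0.16, beside 0.02 for all 333 miRNAs. Of 14 listed for mural cells and fibroblasts, all were tested and 1 was called, miR-100-5p (1.29, SE 0.32, adjusted p = 0.0051, edgeR), whose level averaged 0.80 ± 0.67 RPM in plasma against 2.19 ± 1.67 in EVs (SD, n = 14), with a median of 0.07 for the list. With the mouse as block, where 88 of all 333 miRNAs (26.4%) were called, 5 of the 12 endothelial miRNAs were called, with miR-23a-3p higher in EVs (0.34, SE 0.08, adjusted p = 0.00267, edgeR) and miR-10a-5p lower (-0.27, SE 0.10, adjusted p = 0.0355, edgeR) beside the 3 above, and the mural list again had miR-100-5p alone. The most abundant members were miR-23a-3p of the endothelial list (214 ± 83.4 RPM in plasma, 337 ± 208 in EVs) and miR-21a-5p of the mural list (342 ± 151 RPM in plasma, 388 ± 266 in EVs), and both miRNAs are made by many cell types. With age, neither list had a called miRNA in plasma or EVs (edgeR), with medians per month of 0.013 and 0.0015 in plasma and 0.019 and 0.0045 in EVs. The interaction of age and fraction gave none as well (edgeR).

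Lists for blood cells and organs were measured beside them. Summed RPM of the red cell list were 687 to 3170 in plasma and 512 to 4268 in EVs, led by miR-451a (1048 ± 591 and 1214 ± 973 RPM). The platelet list, led by miR-223-3p (73.7 ± 38.1 and 85.4 ± 59.5 RPM), was at 55.0 to 213 and 58.5 to 285. Most of its sum is miR-223-3p, which is not particular to platelets, so the sum does not measure platelets alone. The leukocyte list, led by miR-150-5p in plasma (65.2 ± 29.6 RPM) and miR-142a-3p in EVs (123 ± 55.2 RPM), was at 92.2 to 349 and 136 to 631. The liver list, led by miR-122-5p in plasma (33.2 ± 32.8 RPM) and miR-192-5p in EVs (40.8 ± 31.9 RPM), was at 14.8 to 182 and 19.3 to 252. The striated muscle list, led by miR-1a-3p (1.98 ± 1.68 and 2.48 ± 2.11 RPM), was at 1.14 to 8.67 and 0.612 to 9.77. Every listed miRNA had a count in each fraction. Between EVs and plasma, where 27 of all 333 miRNAs were called higher in EVs and 34 lower, edgeR called 2 of 5 red cell miRNAs, both lower in EVs (miR-486a-5p -0.77, SE 0.20, adjusted p = 0.00588, and its near-identical copy miR-486b-5p -0.73, SE 0.20, adjusted p = 0.00777, which reads may not separate). It called miR-142a-3p of the leukocyte list higher in EVs (0.77, SE 0.17, adjusted p = 0.0016), and none of the 4 platelet, 4 liver and 3 striated muscle miRNAs tested. With the mouse as block it also called miR-150-5p (-0.36, SE 0.08, adjusted p = 0.000716) and miR-342-3p (-0.28, SE 0.10, adjusted p = 0.0454) of the leukocyte list lower in EVs, and miR-192-5p (0.41, SE 0.11, adjusted p = 0.00409) and miR-194-5p (0.51, SE 0.13, adjusted p = 0.00522) of the liver list higher. With age, edgeR called no miRNA of these 5 lists in either fraction. By TMM CPM, the Spearman correlation of a list's sum with age, given as a description, was 0.58 in plasma and 0.51 in EVs for the mural list, most of whose sum is miR-21a-5p, and 0.12 and 0.34 for the endothelial list. It was 0.47 and 0.66 for the platelet list, most of whose sum is miR-223-3p. For striated muscle it was 0.55 and 0.45, for liver 0.20 and 0.19, for red cells -0.08 and -0.30 and for leukocytes -0.21 and -0.09. Their part in the values of the vascular miRNAs was not tested.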

How the data were processed

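Small RNA libraries of both blood fractions of 14 mice were used. For every RNA the authors deposited an estimated count without normalization, and an RPM signal, the count over a divisor that is shared within a library and is not its total. The study's methods name miRMaster, Bowtie and miRBase for its small RNA reads but leave unsaid whether the blood fractions were treated so, and no source used here explains the divisor. The submitters' processing notes list mm10 and R 4.0.4. Counts of 46 miRNAs, none of the 5 vascular arms among them, were not whole. Counts were rounded and tested with edgeR 4.0.16 (TMM over miRNAs, glmQLFTest, limma 3.58.1, R 4.3.3) for miRNAs with at least 1 RPM in at least 2 of 14 libraries of a fraction, and p-values were adjusted by Benjamini-Hochberg (threshold 0.05). DESeq2 1.42.0 was the other tool. Correlations used 100000 resamples, and ratios used all 16384 sign changes over mice (Python 3.11.15, numpy 2.4.6, scipy 1.17.1, pandas 2.3.3, matplotlib 3.10.9). The edgeR fits and the rank correlation were tested on simulated data, while the sign-flip test and DESeq2 were not.

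Both fractions of a mouse come from the same animal, which pairs them. Within a mouse, deviations from age means correlated between -0.028 and 0.41 over 278 miRNAs, over 0.1 in 9 of 14 mice. The closest replicates differed by more than counting noise (chi-square of 3.83 per degree of freedom), and that libraries come from different mice rests on the labels.

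Named miRNAs are the 5 arms, the other arms and copies of their hairpins, the 3 miRNAs most like each arm, and, from lists for endothelial cells, mural cells and fibroblasts, red cells, platelets, leukocytes, liver and striated muscle, those called and the most abundant. The miRNAs and lists were chosen with earlier results of these data known.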

Additional observations from a re-analysis of the deposited data

Results flagged for a closer look

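In groups of 4, which are the 6-month mice, a value was marked when its gap to the nearest other value, divided by the range, exceeded Dixon's critical value of 0.829. Chance marks about 1 in 20 groups. Of 26 groups of levels and ratios tested, 15 were marked, and 12 of these are the same mouse, replicate 4, so they are not separate events. In plasma this mouse had 147 RPM of miR-126a-3p (others 32.1 to 44.3), 480 RPM of miR-126a-5p (98.1 to 160), 120 RPM of miR-143-3p (13.2 to 29.2) and 71.5 RPM of miR-145a-5p (11.1 to 18.1). In EVs it had 202 RPM of miR-126a-3p (19.4 to 28.4), 726 RPM of miR-126a-5p (70.2 to 101), 123 RPM of miR-143-3p (8.52 to 18.0), 64.4 RPM of miR-145a-5p (5.86 to 9.11) and 7.59 RPM of miR-145a-3p (0.842 to 0.978). By TMM CPM in EVs it had 20953 of miR-126a-3p (4306 to 6725), 75314 of miR-126a-5p (15954 to 19703) and 787 of miR-145a-3p (163 to 236). No plasma level was marked by TMM CPM, and on that scale miR-143-3p and miR-145a-5p were not marked in EVs either.

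The other 3 marked values at 6 months were log2 ratios in other mice. miR-145a-3p to miR-145a-5p in plasma was -1.77 in replicate 1 (others -4.22 to -3.99), from 10 counts in all. miR-143-3p to miR-145a-5p in plasma was 0.25 in replicate 3 (others 0.67 to 0.74). miR-126a-5p to miR-126a-3p in EVs was 1.55 in replicate 2 (others 1.83 to 1.89).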

How the results depend on the processing

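Of 38 results, the direction and the side of the threshold of 0.05 held in 508 of the 532 values with 1 mouse left out and in 214 of the 236 values under another setting. The cause of the others was not tested. EV over plasma for miR-143-3p turned from -0.03 to 0.036 (DESeq2), 0.29 (RPM scaling), 0.18 (no filter on low values), 0.0044 (replicate block by mouse) and 0.00038 (without the uncertain pairs), and lay between -0.064 and 0.051 with each mouse left out. miR-145a-5p turned to 0.031 with RPM scaling and was called at -0.36 with the mouse as block. miR-145a-3p turned to -0.086 with the block and to -0.00036 without the age covariate (-0.11 to 0.12 with each mouse left out). The block changed no other call of the 5 arms. The interaction turned for miR-126a-3p to -0.025 (log2 of age) and -0.0061 (without the 18-month mice; -0.012 to 0.017 with each mouse left out), for miR-126a-5p to 0.015 (RPM scaling), and for miR-143-3p to 0.024 (RPM scaling), 0.0083 (scaling to miRNA counts), 0.0050 (no filter), 0.0033 (1 RPM in 7 of 14 libraries), 0.014 (without the uncertain pairs) and 0.0011 (without the 18-month mice; -0.013 to 0.0071 with each mouse left out). The Spearman correlation of RPM with age for miR-126a-3p in plasma turned to -0.011 without the 18-month mice. The EV trend of miR-145a-5p lay between 0.058 and 0.090 with each mouse left out. The difference in the ratio of miR-143-3p to miR-145a-5p lay between 0.29 and 0.42, and was 0.42 (exact adjusted p = 0.0264) in mice with at least 10 counts of both. This setting leaves out replicate 1 at 6 months alone, so it repeats the value given without that mouse. The Spearman correlation between plasma and EVs fell to 0.68 for miR-126a-3p without the uncertain pairs and to 0.62 for miR-145a-3p with scaling to miRNA counts (0.66 to 0.81 with each mouse left out). This relation and its settings were chosen after seeing the data. Counts of miRNAs called with age moved from 1 in EVs to 0 (RPM scaling, 1 RPM in 7 of 14 libraries), 3 (without the 18-month mice), 5 (DESeq2, log2 of age) and 7 (no filter), with 0 to 10 when each mouse was left out, and from 0 in plasma to 2 (DESeq2), 7 (no filter) and 9 (without the 18-month mice), with 0 to 3 when each mouse was left out. The interaction count moved from 0 to 1 with no filter and without the 18-month mice. The shallowest plasma library holds 143 counts of the 5 arms, which limits miR-145a-3p most.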

Other observations

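The other products of these hairpins were scarce. miR-143-5p had 26 counts over all plasma libraries and 83 over all EV libraries, against 2584 and 5028 of miR-143-3p. miR-145b, a copy named for its likeness to miR-145a and annotated elsewhere on the same chromosome, had 124 counts in plasma (0 libraries without a count, 1.57 ± 0.72 RPM, SD, n = 14) and 199 in EVs (1.62 ± 1.57 RPM). Its highest EV values were in the 12-month mice, at 3.47 and 4.88 RPM, and in replicate 4 at 6 months, at 4.69 RPM. miR-126b-3p and miR-126b-5p, from the strand opposite Mir126a, had 0 counts in every library, which allows a share of up to 0.000574% of the pooled miRNA counts in plasma and 0.000326% in EVs (3 counts, counting error only).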
